A study of Mus musculus with 46 samples.

Results

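The kidneys compared here came from C57BL/6 mice at postnatal day 23, and the comparison set 5 p150-negative against 7 p150-positive kidneys. Every mouse carried the P195A allele of Adar, the controls included. In p150-negative mice (P195A/p150-) the other allele does not make the p150 form of ADAR1, and in p150-positive mice (P195A/p150+) it does. The members are the libraries labelled kidney, 15 of the 46 libraries of the series, of which 12 were kept. Kept were p150-negative animals 1, 3, 8, 9 and 16 and p150-positive animals 4, 5, 6, 7, 10, 13 and 15. The p150-negative animals 2 and 11 and the p150-positive animal 12 were left out, because their libraries labelled kidney held RNA of stomach or small intestine. The comparison asks what kidney expresses when the P195A form is the only p150 present.

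ADAR1 converts adenosine to inosine in double-stranded RNA, which keeps the cell's own RNA from being taken for viral RNA by cytosolic sensors such as MDA5 and PKR. Its p150 form is induced by interferon and carries a Z-alpha domain, the site of the P195A change, which recognises nucleic acids in the left-handed Z conformation. The kidney reabsorbs filtered sugars, amino acids and ions along the proximal tubule, adjusts salt, acid and water from the loop of Henle to the collecting duct, and releases the hormones renin and erythropoietin. Type I interferon acts through a complex of STAT factors and IRF9, which binds interferon-stimulated response elements (ISRE) near the start of target genes.

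The kept kidneys held between 269213 and 4875907 counts, and all but that of animal 3 held at least 1298927. The library of animal 3 had a count for 6919 genes, while between 10400 and 13785 would be expected in each of the other 11 at its depth. Values without it are given where leaving it out changed a call or moved a count or a size by over 1.5 times, and for genes in which it stood apart. Umod, Slc34a1, Kap and Aqp2, which identify kidney, summed to between 9057 and 20240 CPM (counts per 1000000 counts of the library) in kept p150-negative and 10751 to 14422 CPM in kept p150-positive kidneys, against at most 6.42 CPM in the 3 libraries left out. The p150-positive kidney of animal 5, with 1298927 counts, also stood apart. It had a count for 12055 genes. Its log2 (CPM + 1) values correlated with those of the kidneys other than animal 3 at 0.724 to 0.768. Among those other kidneys the correlations were 0.893 to 0.955. Sex is not in the labels. Xist was read without the Y-linked Ddx3y in 3 of 5 p150-negative and 3 of 7 p150-positive kidneys, and Ddx3y without Xist in the others. Genes of the adrenal gland summed to 137 CPM in 1 p150-negative kidney, animal 8, and to at most 9.02 CPM in the p150-positive kidneys.

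In p150-negative kidneys, interferon-stimulated genes, MHC class I genes, Cdkn1a, renin and the cold-inducible Rbm3 were higher, and several proximal tubule transporters, red cell genes, Dio1, Scd1 and Serpina1f were lower. Of 11957 genes tested with edgeR's quasi-likelihood test with Benjamini-Hochberg adjustment, 46 were called higher (0.385%) and 37 lower (0.309%) at an adjusted p under 0.05, and 415 (3.47%) and 564 (4.72%) were higher and lower at an unadjusted p under 0.05. All values of p below are adjusted in this way over all genes tested, unless stated otherwise. In 37 of the 46 genes called higher every p150-negative kidney lay above every p150-positive one, as in 0.828% of all genes tested. In 31 of the 37 called lower every p150-negative kidney lay below, as in 1.02% of all genes. The calls were made on these same kidneys, so both counts are a description. Without animal 3, 119 genes were called higher (0.969%) and 92 lower (0.749%) of 12283, with 46 and 36 of the original calls among them. Over all 15 labelled kidneys, edgeR called 1 gene higher (Rbm3) and 0 lower, with 706 at an unadjusted p under 0.05, so the calls below rest on leaving out the 3 libraries of other tissue. Of 53 called genes described or followed here, 31 lost their call in at least 1 fit that left out 1 kidney. The plot of gene lists shows the log2 fold change (p150-negative over p150-positive) of every tested member of the lists described next. Of all 11957 genes tested, 5221 had a log2 fold change above 0 and 6736 below 0.

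**Figure D1:**
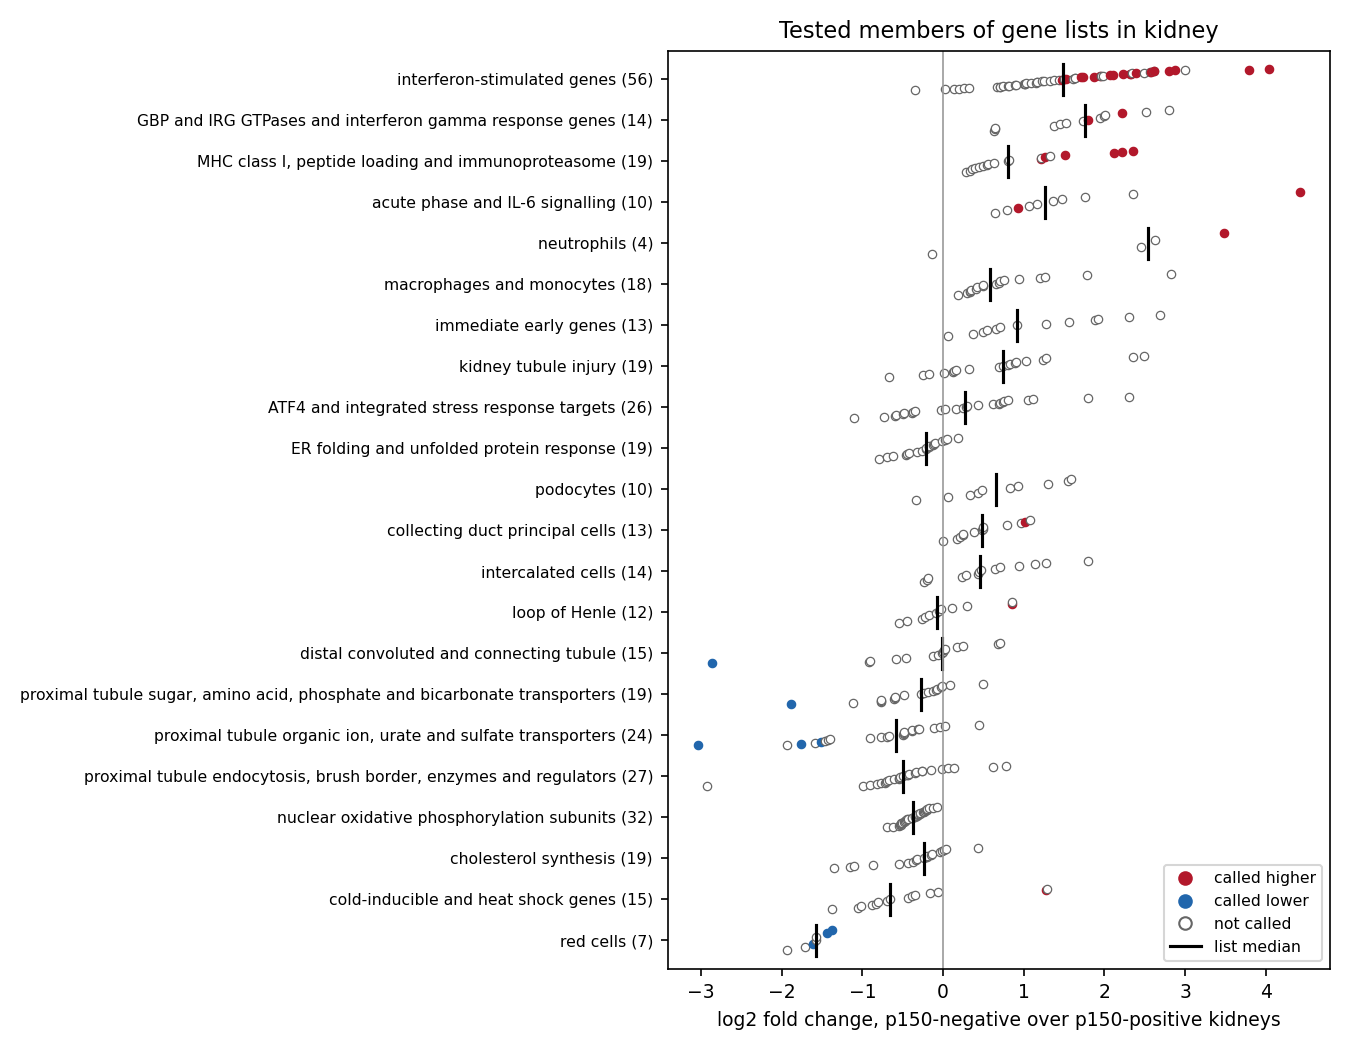
Log2 fold change of each tested member (points, with the number tested in parentheses) of 22 gene lists, with the list's median as a black bar. Interferon-stimulated genes lie almost wholly to the right of 0 with a median of 1.49, and the 7 red cell genes all lie to the left with a median of -1.58.

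Interferon-stimulated genes were higher in p150-negative kidneys. Of 61 listed genes 56 were tested, and 18 of these were called higher and 0 lower, against 0.385% and 0.309% of all genes tested. The median log2 fold change of the 56 was 1.49, against -0.07 over all genes tested, and 55 of the 56 were above 0. Without animal 3, 30 of 58 were called higher and the median was 1.66. With the letters of the animals' identifiers in the labels (P, AC, AA or AS) as a block 9 of the 56 were called, and over all 15 labelled kidneys 0 were, by edgeR, at a median of 1.53. In bulk tissue, fewer cells of a type and less RNA per cell cannot be told apart, and the same holds for more cells and more RNA.

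The promoters of genes called higher were searched on both strands for the ISRE core, which is GAAA, any 2 bases and GAAA again, in RefSeq windows (GRCm38.p6) of 300 bases, 250 before and 50 after the gene's start. Of the 46 genes called higher 37 matched a window, and 13 of these held the core (35.1%). It was found for 0 of the 27 matched genes called lower, for 352 of 9270 matched genes among all tested (3.8%), and in 3.4% of all 32851 windows. For the interferon-gamma-activated site core TTCNNNGAA the shares were 10.8%, 14.8%, 8.2% and 8.3%. A match is a run of letters, not a measured binding site. The stretches below are shown because they stand before genes whose values follow. They are written 5′ to 3′ on the gene's strand, with each core in capitals. TTTC, 2 bases and TTTC is the same core read on the other strand, and cores can overlap.
Isg15 (chr4:156200850-156200921, minus strand): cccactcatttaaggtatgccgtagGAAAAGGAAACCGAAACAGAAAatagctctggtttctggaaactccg
Ifit1 (chr19:34640760-34640838, plus strand): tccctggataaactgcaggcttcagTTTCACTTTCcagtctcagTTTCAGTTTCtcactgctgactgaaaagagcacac
Ifit3b (chr19:34607744-34607837, plus strand): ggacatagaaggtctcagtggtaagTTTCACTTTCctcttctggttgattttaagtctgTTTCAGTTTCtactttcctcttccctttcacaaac
Oas1a (chr5:120907526-120907570, minus strand): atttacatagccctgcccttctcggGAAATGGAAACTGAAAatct
Cxcl10 (chr5:92349068-92349127, minus strand): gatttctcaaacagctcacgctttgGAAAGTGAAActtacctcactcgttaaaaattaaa
B2m (chr2:122147523-122147582, plus strand): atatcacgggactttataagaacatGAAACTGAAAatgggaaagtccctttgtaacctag
Irgm1 (chr11:48871421-48871475, minus strand): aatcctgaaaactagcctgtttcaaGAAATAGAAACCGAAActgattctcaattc
Apol9a (chr15:77411099-77411164, minus strand): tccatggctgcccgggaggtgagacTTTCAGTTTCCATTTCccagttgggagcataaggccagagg
The Isg15 stretch held 3 overlapping cores, and those of Ifit1, Ifit3b, Oas1a, Irgm1 and Apol9a held 2 each. The 94 bases printed for Ifit3b also stand before its neighbour Ifit3, letter for letter.

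Isg15, a small protein that is conjugated to other proteins, stood at 75.5, 208, 172, 121 and 116 CPM in p150-negative animals 1, 3, 8, 9 and 16. In the p150-positive kidneys it ran from 15.2 to 50.5 CPM with a median of 22.2. The groups did not overlap, and the p150-positive kidney nearest to the others was that of animal 15. The log2 fold change was 2.32 ± 0.31 (SE; adjusted p = 0.002). Its protease Usp18, which also damps signalling at the interferon receptor, stood at 105, 92.9, 196, 130.5 and 173 CPM against 0 to 34.7 CPM (median 13.8). The change of Usp18 was 2.80 ± 0.51 (adjusted p = 0.0136).

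The Ifit proteins bind foreign RNA ends. Ifit1 stood at 127.5, 108, 346, 149 and 234 CPM in animals 1, 3, 8, 9 and 16, against 14.5 to 81.6 CPM (median 32.8), with a change of 2.23 ± 0.41 (adjusted p = 0.0143). Ifit3b stood at 92.9, 81.7, 111, 84.7 and 115 CPM against 13.9 to 36.0 CPM (median 16.9), with a change of 2.07 ± 0.28 (adjusted p = 0.002). For both genes every p150-negative kidney was above every p150-positive one. Ifit3 was called too (1.71), but reads of Ifit3 and Ifit3b can be shared in counting, so their single values are uncertain.

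The oligoadenylate synthetases (Oas) make the messenger that activates RNase L. Oas1a stood at 35.4, 85.4, 98.0, 71.7 and 87.7 CPM against 2.57 to 20.6 CPM (median 7.27), a log2 fold change of 2.87 ± 0.46 (adjusted p = 0.00664). Oas2 stood at 9.43, 40.9, 29.8, 14.3 and 41.8 CPM against 0 to 4.62 CPM, a change of 4.04 ± 0.80 (adjusted p = 0.0258). The groups did not overlap in either gene. Oas1g, a near copy of Oas1a, changed by 3.79 ± 0.77 (adjusted p = 0.0293) although animal 3 was at 0. The related Oasl2 rose from a p150-positive range of 3.08 to 51.4 CPM to 111 to 383 CPM (2.62 ± 0.41, adjusted p = 0.00537).

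Irf7, the transcription factor that amplifies type I interferon expression, stood at 241, 260, 586.5, 335 and 384.5 CPM in animals 1, 3, 8, 9 and 16. The p150-positive range was 28.3 to 125 CPM with a median of 54.4, and the groups did not overlap. The log2 fold change was 2.33 ± 0.34 (adjusted p = 0.00405). Lgals3bp, a secreted glycoprotein, stood at 858, 412, 909, 815 and 633 CPM against 82.4 to 186 CPM (median 131), so that the lowest p150-negative kidney, that of animal 3, was still over the highest p150-positive one. Ifi27, a small membrane protein, stood at 478, 628, 650.5, 694 and 729 CPM against 94.9 to 220.2 CPM (median 113.5), with a change of 2.11 ± 0.23 (adjusted p = 0.000311).

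Cxcl10, the chemokine that draws T cells, stood at 27.7, 55.7, 71.8, 22.7 and 49.2 CPM in animals 1, 3, 8, 9 and 16 against 0 to 5.27 CPM (median 4.04). The groups did not overlap, and the change was 3.71 ± 0.60 (adjusted p = 0.00664). Ddx60, a helicase of antiviral sensing, stood at 32.3, 3.71, 36.4, 20.1 and 30.3 CPM against 1.5 to 10.98 CPM, so the kidney of animal 3 lay within the p150-positive range. Its change was 2.63 ± 0.54 (adjusted p = 0.0296), and 2.84 ± 0.44 without animal 3 (adjusted p = 0.00451). Apol9a, an interferon-induced apolipoprotein L gene, stood at 16.3, 66.9, 43.8, 12.9 and 20.5 CPM, and at 0 in 4 of 7 p150-positive kidneys with a highest value of 5.71 CPM (4.46 ± 0.92, adjusted p = 0.0322). Ifi206, of the DNA-binding Ifi200 family, was at 12.9 to 92.9 CPM against 0 to 4.83 CPM (4.27 ± 0.71, adjusted p = 0.00808, and 3.78 ± 0.64, adjusted p = 0.00677 without animal 3). Dtx3l, a ubiquitin ligase that pairs with Parp9, stood at 21.7, 227, 51.1, 24.95 and 29.9 CPM against 5.05 to 14.6 CPM. Animal 3 alone set much of the size of that difference, which was 2.58 ± 0.53 (adjusted p = 0.0322) with it and 1.67 ± 0.33 (adjusted p = 0.0194) without it.

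**Figure D2:**
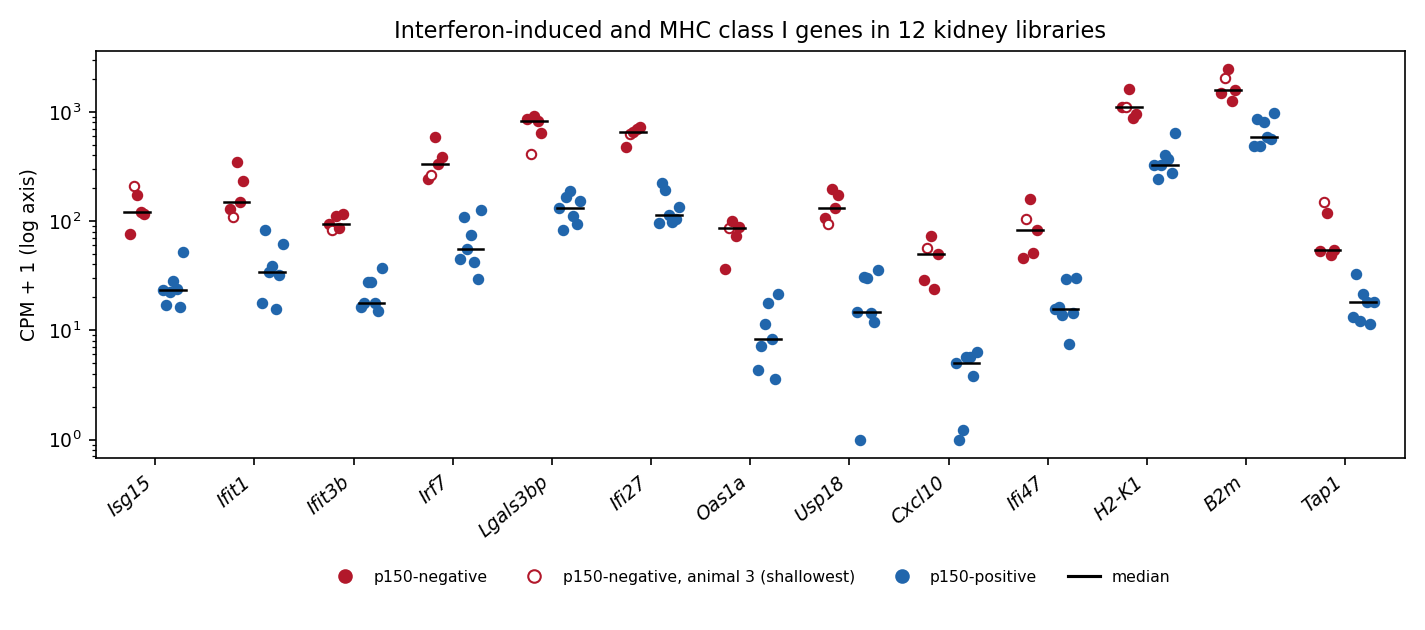
CPM + 1 on a log axis for 13 interferon-induced and MHC class I genes, 1 point per kidney library, with group medians as black bars and the shallow library of animal 3 as an open point. In each of the 13 genes the p150-negative points lie above the p150-positive points, for example 75.5 to 208 CPM against 15.2 to 50.5 CPM for Isg15.

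Among the GBP and IRG GTPases, which attack vacuoles of intracellular parasites, and further targets of interferon gamma, 2 of 14 tested were called higher and 0 lower (0.385% and 0.309% of all genes), all 14 were above 0, and the median log2 fold change was 1.76. Without animal 3 the count was 9 of 15 (0.969% of all genes). Irgm1, a regulator of the IRG proteins, stood at 407, 175, 904, 484 and 405 CPM in animals 1, 3, 8, 9 and 16 against 67.0 to 208 CPM (median 128). Only the kidney of animal 3 fell within the p150-positive range, and the change was 1.80 ± 0.33 (adjusted p = 0.0136). Ifi47 stood at 44.9, 104, 156.5, 49.9 and 81.2 CPM against 6.41 to 28.98 CPM (2.22 ± 0.39, adjusted p = 0.0111), with no overlap. Iigp1, an effector of the family, was at 93.5, 0, 507, 79.8 and 118 CPM against 10.01 to 37.3 CPM. It missed the threshold with animal 3 (2.80, adjusted p = 0.058) and passed it without (3.09 ± 0.45, adjusted p = 0.00301).

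Class I MHC molecules carry peptides from inside the cell to its surface. Of 19 tested genes of class I, peptide loading and the immunoproteasome, 6 were called higher and 0 lower (0.385% and 0.309% of all genes), all 19 were above 0, and the median log2 fold change was 0.81. Without animal 3, 8 of 20 were called. With the identifier letters as a block 2 of 19 were, at a median of 0.68, and B2m lost its call. Over all 15 labelled kidneys 0 of 19 were called by edgeR, at a median of 0.59. The light chain B2m stood at 1495, 2050, 2449, 1263 and 1593 CPM in animals 1, 3, 8, 9 and 16 against 483 to 979 CPM (median 584), and the heavy chain H2-K1 at 1093, 1107, 1626, 876 and 943 CPM against 240.2 to 641 CPM (median 324). Neither gene's groups overlapped. B2m changed by 1.26 ± 0.21 (adjusted p = 0.00808) and H2-K1 by 1.51 ± 0.22 (adjusted p = 0.00405). The peptide transporter Tap1 stood at 52.3, 149, 117, 48.1 and 53.3 CPM against 10.5 to 31.6 CPM (2.12 ± 0.37, adjusted p = 0.0109). H2-Q6, a non-classical heavy chain whose reads can be shared with H2-Q7, changed by 2.22 ± 0.40 (adjusted p = 0.0136). Of 6 class II genes tested, 0 were called by edgeR in either direction, with 1 at an unadjusted p under 0.05, and their median was -0.27.

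Adar itself did not pass the test. It stood at 15.7, 0, 24.9, 14.7 and 21.3 CPM in p150-negative animals 1, 3, 8, 9 and 16, and from 9.41 to 43.9 CPM (median 18.0) in p150-positive kidneys, and the ranges overlapped (log2 fold change -0.31 ± 0.51, adjusted p = 0.973). A count per gene adds up its isoforms, so it is no check of p150. Of 21 tested genes of nucleic acid sensing, ADARs and lytic cell death, edgeR called 0 in either direction, and the median was 0.64. At an unadjusted p under 0.05, 7 were higher and 1 lower (3.47% and 4.72% of all genes). DESeq2 called 3 (1.23% of all genes) and limma voom 1 (0.443%) of them higher. Without animal 3, edgeR called 2 higher (0.969%). Zbp1, the other mammalian protein with Z-alpha domains and a trigger of necroptosis, stood at 27.4, 119, 74.6, 22.7 and 33.6 CPM against 0 to 16.3 CPM (median 4.92). Its groups did not overlap, yet its change of 3.00 ± 0.68 missed the threshold (adjusted p = 0.0598, and 0.0553 without animal 3). Ifih1, which encodes MDA5, stood at 28.3, 219, 50.1, 26.3 and 38.5 CPM against 0 to 17.4 CPM (2.57 ± 0.63, adjusted p = 0.0822, and 1.77 ± 0.51, adjusted p = 0.109 without animal 3). Eif2ak2, which encodes PKR, had values of 21.2, 0, 37.8, 26.3 and 36.1 CPM against 12.8 to 19.3 CPM. Apart from animal 3 its p150-negative kidneys were all above the others, at 0.94 ± 0.24 without that animal (adjusted p = 0.0668). Mlkl, the executor of necroptosis, changed by 1.72 ± 0.58 (adjusted p = 0.297), and its partner kinase Ripk3, under the filter on low counts, stood at 0 to 14.4 CPM in p150-negative and 0 to 6.06 CPM in p150-positive kidneys.

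PKR phosphorylates eIF2-alpha, which leads to the integrated stress response and its transcription factor ATF4. Of 26 tested ATF4 and stress response genes, edgeR called 0, at a median of 0.27. At an unadjusted p under 0.05, 2 were higher and 1 lower (3.47% and 4.72% of all genes). DESeq2 called 1 of the 26 higher (1.23% of all genes). EdgeR, DESeq2 and voom each called 0 of 20 aminoacyl-tRNA synthetases (0 at an unadjusted p under 0.05, median 0.14) and 0 of 19 endoplasmic reticulum folding genes (2 lower at an unadjusted p under 0.05, median -0.21). Atf4 stood at 95.5, 7.43, 148, 118 and 121 CPM against 73.0 to 115 CPM (0.03 ± 0.38, adjusted p = 0.997). Asns, asparagine synthetase, stood at 31.7, 3.71, 36.1, 40.5 and 23.4 CPM against 5.38 to 43.1 CPM. Its p150-positive median was 8, and the kidney of animal 5 was the only p150-positive one over 14.5 CPM (1.05 ± 0.57, adjusted p = 0.702). Ddit3, which encodes CHOP, also had its highest value in animal 5, at 66.98 CPM, against 0 to 38.5 CPM in p150-negative kidneys (-0.37 ± 0.53, adjusted p = 0.965). Atf3, a stress-induced repressor, was at 6.29, 0, 21.7, 8.91 and 16.4 CPM against 0 to 4.72 CPM. It was called only without animal 3 (2.49 ± 0.53, adjusted p = 0.027; with it 2.30, adjusted p = 0.113).

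Cdkn1a, which encodes the cell-cycle inhibitor p21, was the 1 gene called higher among 15 tested p53 targets (0.385% of all genes). It stood at 108, 149, 133, 117 and 55.7 CPM in animals 1, 3, 8, 9 and 16 against 12.7 to 56.97 CPM (median 25.2). Animal 16 lay just under animal 5, the highest p150-positive kidney. The change was 1.88 ± 0.35 (adjusted p = 0.0163). Of 19 tested tubule injury genes, edgeR called 0, with 6 at an unadjusted p under 0.05, all higher (3.47% of all genes). DESeq2 and limma voom called 0 as well, and the median was 0.74. Havcr1, the injury molecule KIM-1, stood at 5.43, 0, 12.96, 11.1 and 9.02 CPM against 0 to 4.7 CPM (2.49 ± 0.74, adjusted p = 0.18). Lcn2, the iron-binding protein NGAL, stood at 85.7, 0, 61.6, 45.9 and 129.9 CPM against 0.94 to 36.2 CPM. Apart from animal 3 the groups did not overlap in either gene. Without animal 3 Lcn2 was called (2.65 ± 0.55, adjusted p = 0.0255) and Havcr1 was not (2.67, adjusted p = 0.0825). C3, a complement gene that injured tubules express, was at 10.3 to 91.0 CPM against 10.4 to 43.2 CPM (1.28 ± 0.45, adjusted p = 0.32).

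S100a8, a subunit of the neutrophil protein calprotectin, stood at 69.7, 22.3, 49.4, 59.3 and 96.3 CPM in animals 1, 3, 8, 9 and 16 against 0.43 to 16.2 CPM (median 3.28). The groups did not overlap and the change was 3.48 ± 0.64 (adjusted p = 0.0147). Its partner S100a9 stood at 59.4, 48.3, 60.6, 68.6 and 85.7 CPM against 1.68 to 44.7 CPM, and without animal 3 it was called as well (2.80 ± 0.66, adjusted p = 0.0459). Summed over 14 neutrophil markers the level was 126 to 258 CPM in p150-negative and 11.4 to 85.5 CPM in p150-positive kidneys. Of these markers 4 passed the filter and 1 was called higher (0.385% of all genes). Without animal 3, 7 passed and 5 were called higher (0.969% of all genes), at a median of 2.81. A marker can pass the filter through the p150-negative kidneys alone, so these counts and the median are a description. Sums of 20 macrophage and monocyte markers overlapped, at 297 to 1032 against 262 to 677 CPM. EdgeR called 0 of 18 tested, with 5 at an unadjusted p under 0.05, all higher (3.47% of all genes). Ly6c2, a monocyte marker that interferon also induces, was called without animal 3 (3.06 ± 0.62, adjusted p = 0.0208). The part of these cells in the interferon-related differences was not tested. Of 10 tested acute phase and IL-6 signalling genes 2 were called higher (0.385% of all genes), and 4 without animal 3 (0.969%). Stat3, the factor downstream of IL-6, stood at 107, 141, 135, 104 and 114 CPM against 41.6 to 67.1 CPM (median 59.7) with no overlap (0.93 ± 0.20, adjusted p = 0.0332), and lost its call with Xist as a covariate. Serpina3g, a protease inhibitor of leukocytes, stood at 65.7, 0, 87.5, 28.96 and 183 CPM against 0 to 14.9 CPM (4.42 ± 0.90, adjusted p = 0.0296). All 13 tested immediate early genes were above 0, with a median of 0.92. EdgeR called 0 of them, with 7 higher at an unadjusted p under 0.05 (3.47% of all genes). DESeq2 called 4 higher (1.23% of all genes), and edgeR called 4 higher without animal 3 (0.969%). Among them Junb was at 38.3 to 156 CPM against 10.5 to 29.4 CPM (1.56 ± 0.36, adjusted p = 0.0598, and 1.21 ± 0.27, adjusted p = 0.0357 without animal 3).

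Proximal tubule genes were lower in p150-negative kidneys at a few transporters. Of 70 tested genes in 3 lists, 4 were called lower and 0 higher, against 0.309% and 0.385% of all genes. Of the 70, 62 had a log2 fold change below 0, against 6736 of all 11957 genes tested. Without animal 3, 9 were called lower (0.749% of all genes). Medians were -0.27 for 19 sugar, amino acid, phosphate and bicarbonate transporters, -0.58 for 24 organic ion, urate and sulfate transporters and -0.50 for 27 genes of endocytosis, brush border, enzymes and regulators, where edgeR called 0 and 9 were lower at an unadjusted p under 0.05. With the identifier letters as a block, 1 organic ion transporter kept its call, Slc22a12. The glucose transporter gene Slc5a2 and the organic ion transporter genes Slc22a2 and Slc22a7 lost theirs.

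Slc5a2, the glucose transporter SGLT2 of the early proximal tubule, stood at 127, 182, 115, 154 and 145 CPM in animals 1, 3, 8, 9 and 16. The p150-positive kidneys ran from 219 to 784 CPM with a median of 518, and even the lowest of them, animal 5, was above every p150-negative kidney. The log2 fold change was -1.89 ± 0.32 (adjusted p = 0.00854). Slc34a1, the main renal phosphate transporter, stood at 2261, 1809, 1926, 1963 and 2794 CPM against 2514 to 4302 CPM (median 3565). The ranges overlapped through animal 16, and the change missed the threshold (-0.77 ± 0.19, adjusted p = 0.0808). Its relative Slc34a3 was called without animal 3 (-1.72 ± 0.22, adjusted p = 0.00133), and with animal 3, whose 145 CPM is the highest of its group, it was not (-1.12, adjusted p = 0.32).

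The organic ion transporters take up drugs, toxins and urate. Slc22a2 (OCT2) stood at 73.5, 37.2, 60.2, 83.8 and 94.7 CPM in animals 1, 3, 8, 9 and 16 against 97.8 to 256 CPM (median 209), with a change of -1.51 ± 0.30 (adjusted p = 0.028). Slc22a12 (URAT1), the urate exchanger, stood at 27.2, 11.1, 58.1, 44.6 and 98.8 CPM against 119 to 209.5 CPM (median 161), with a change of -1.76 ± 0.36 (adjusted p = 0.0322). Slc22a7 (OAT2) stood at 3.14, 0, 3.5, 7.13 and 5.74 CPM against 10.1 to 77.9 CPM (median 33.9), with a change of -3.04 ± 0.61 (adjusted p = 0.028). In these 3 genes every p150-negative kidney was below every p150-positive one. With 1 kidney left out at a time, Slc22a12 and Slc22a7 each lost their call in 8 of 12 fits and Slc22a2 in 9. Slc22a6 (OAT1) passed only without animal 3 (-1.58 ± 0.35, adjusted p = 0.035, against -1.40 and adjusted p = 0.0849 with it). Among proximal enzymes, the creatine synthesis gene Gatm changed by -0.77 ± 0.19 (adjusted p = 0.0999), the inositol-degrading Miox by -0.82 ± 0.25 (adjusted p = 0.199) and the acyl-CoA synthetase Acsm3 by -2.92 ± 0.77 (adjusted p = 0.116).

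**Figure D3:**
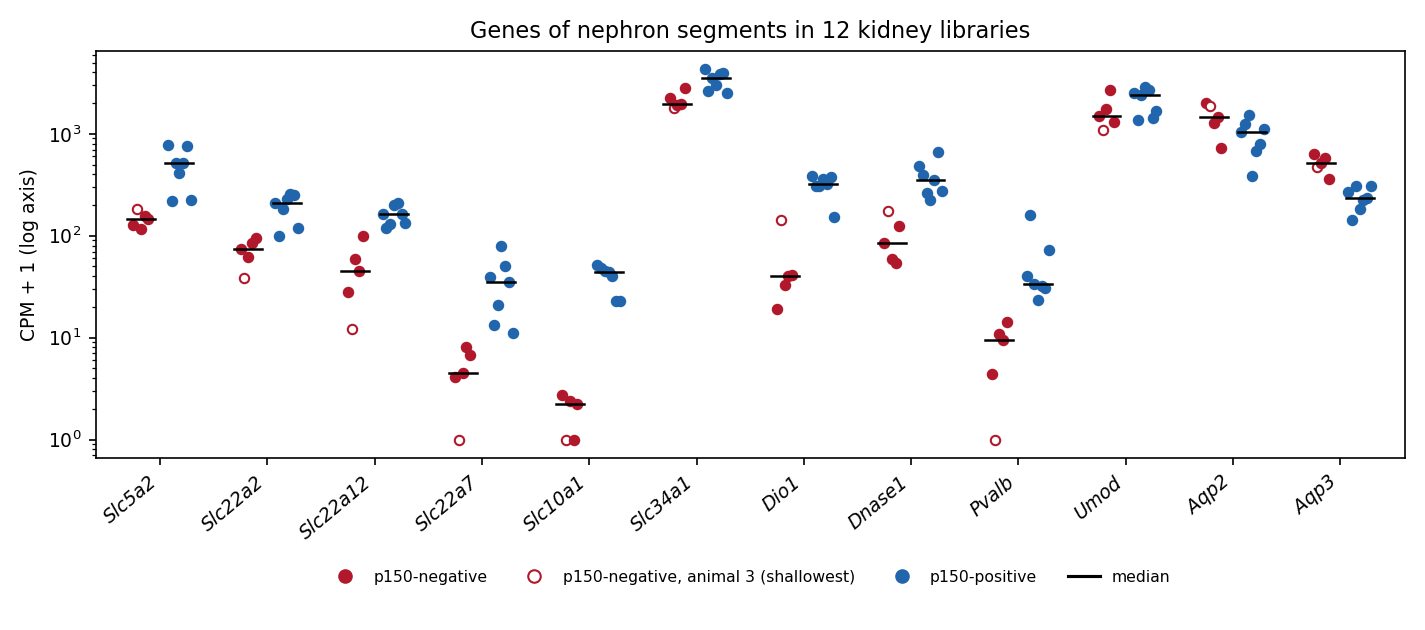
CPM + 1 on a log axis for 12 genes of the nephron, 1 point per kidney library, with group medians as black bars and animal 3 as an open point. Slc10a1 and Slc5a2 are lower in every p150-negative kidney, Umod and Aqp2 overlap between groups, and Aqp3 is higher in every p150-negative kidney.

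From the loop of Henle to the collecting duct, 54 genes of 4 lists were tested, 2 were called higher and 1 lower (0.385% and 0.309% of all genes), and without animal 3 the counts were 6 and 1 (0.969% and 0.749%). Umod, the uromodulin of the thick ascending limb, stood at 1509, 1085, 1767, 2707 and 1295 CPM against 1377 to 2887 CPM (-0.45 ± 0.26, adjusted p = 0.747). Slc12a3, the thiazide-sensitive salt transporter, changed by 0.01 ± 0.31 (adjusted p = 0.997) and the vasopressin-regulated water channel Aqp2 by 0.50 ± 0.29 (adjusted p = 0.746). Aqp3, the basolateral water channel of principal cells, stood at 639, 472, 515, 578 and 359.9 CPM against 141 to 305 CPM (median 231). Its groups did not overlap, and the change was 1.02 ± 0.21 (adjusted p = 0.0296). Pvalb, the calcium-binding parvalbumin of the early distal convoluted tubule, stood at 3.43, 0, 9.8, 8.46 and 13.1 CPM against 22.5 to 158 CPM (-2.87 ± 0.60, adjusted p = 0.0336), again without overlap. With 1 kidney left out at a time, Pvalb lost its call in 9 of 12 fits. The sodium channel subunit Scnn1b and the intercalated cell transporter Slc4a9 were called higher only without animal 3 (1.07 ± 0.25, adjusted p = 0.0474, and 1.43 ± 0.28, adjusted p = 0.0173). Of 10 tested podocyte genes edgeR called 0 with animal 3, with 3 at an unadjusted p under 0.05, all higher (3.47% of all genes). DESeq2 called 1 higher (1.23% of all genes), as did edgeR without animal 3 (0.969%).

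Several of the larger falls were of genes outside these lists. Slc10a1 (chromosome 12, 80953183 to 80968705, minus strand, GRCm38), the bile acid transporter NTCP known from liver, stood at 1.71, 0, 1.4, 0 and 1.23 CPM in animals 1, 3, 8, 9 and 16. The p150-positive kidneys lay between 21.96 and 50.1 CPM (median 43.2), far from overlap, and the log2 fold change was -5.15 ± 0.57 (adjusted p = 0.000331). The 4 genes that identify liver summed to 0 to 109 CPM in p150-negative and 9.76 to 532 CPM in p150-positive kidneys, ranges that overlap, and the part of liver RNA in this difference was not tested. Serpina1f, of the alpha-1-antitrypsin family, stood at 9.43, 0, 57.4, 41.4 and 76.7 CPM against 302 to 886 CPM (-3.71 ± 0.55, adjusted p = 0.00405). Dio1, the deiodinase that activates thyroid hormone, stood at 18.3, 141, 31.9, 39.7 and 40.2 CPM against 152 to 382 CPM (median 317). The kidney of animal 3 was the highest of its group and still under the lowest p150-positive kidney, animal 15, and the change was -2.90 ± 0.40 (adjusted p = 0.00215), or -3.37 ± 0.30 without animal 3 (adjusted p = 7.26e-05). Dnase1, the secreted DNA-degrading enzyme, stood at 83.7, 175, 58.1, 53.5 and 125 CPM against 225 to 663 CPM (-2.13 ± 0.33, adjusted p = 0.00537). Aspg, an asparaginase, stood at 0 to 4.51 CPM against 11.3 to 54.7 CPM (-3.93 ± 0.67, adjusted p = 0.00928), and Rdh16f2, a retinol dehydrogenase family gene, at 0 to 137 CPM against 197 to 343 CPM (-2.21 ± 0.45, adjusted p = 0.0293). Slc16a14, an orphan carrier, was at 0 to 9.02 CPM against 2.63 to 109 CPM, with animal 15 far under the other p150-positive kidneys, of which the next stood at 41.8 CPM (-3.57 ± 0.67, adjusted p = 0.0176).

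Scd1, the fatty acid desaturase, stood at 4.57, 0, 5.25, 9.8 and 3.69 CPM in animals 1, 3, 8, 9 and 16 against 33.9 to 80.7 CPM (median 58.0) with no overlap (-3.46 ± 0.44, adjusted p = 0.00176). Car3, a carbonic anhydrase abundant in fat and muscle, stood at 4.29, 0, 3.85, 1.78 and 11.1 CPM against 4.22 to 247 CPM, and its ranges overlapped (-4.50 ± 0.97, adjusted p = 0.0418). Both are also strongly expressed in fat, and 6 fat markers summed to 0 to 32.0 CPM in p150-negative and 0 to 406 CPM in p150-positive kidneys. The brown fat genes Ucp1 (0 to 5.33 against 0 to 148 CPM) and Cidea (0 to 7.14 against 0 to 113 CPM) did not pass the test (adjusted p = 0.179 and 0.382). Ucp1 was at 0 in 3 of 5 p150-negative kidneys and in 1 of 7 p150-positive ones, animal 7, in which Car3 stood at 4.22 CPM and Scd1 at 80.7 CPM. The part of fat in these differences was not tested.

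All 7 tested red cell genes were lower in p150-negative kidneys at an unadjusted p under 0.05 (4.72% of all genes), and 3 were called lower (0.309%). The median log2 fold change was -1.58. The adult globin genes Hbb-bs and Hba-a1 stood at 556, 2110, 1493, 1304 and 1972 CPM, and at 147, 427, 442, 439.7 and 491 CPM, in animals 1, 3, 8, 9 and 16. The p150-positive ranges were 2248 to 5869 CPM for Hbb-bs and 569 to 1569 CPM for Hba-a1, so that every p150-negative kidney was below every p150-positive one. Hbb-bs changed by -1.44 ± 0.30 (adjusted p = 0.0323), Hba-a1 by -1.38 ± 0.30 (adjusted p = 0.0463) and Bpgm, the red cell enzyme that makes the regulator of oxygen release, by -1.61 ± 0.33 (adjusted p = 0.0311). With 1 kidney left out at a time, Hba-a1 lost its call in 12 of 12 fits (adjusted p from 0.0512 without animal 3 to 0.117 without animal 8), and Hbb-bs and Bpgm each lost theirs in 8 of 12. With Xist as a covariate or the identifier letters as a block, 0 of the 7 were called by edgeR, at medians of -1.48 and -1.67. DESeq2 called 6 of the 7 lower (1.34% of all genes) and limma voom 2 (0.335%). Reads of the paired globin genes (Hbb-bs with Hbb-bt at -1.58, and Hba-a1 with Hba-a2) can be shared. The libraries were made from whole kidney, and the blood left in each is not given by the labels.

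Epo, the gene of erythropoietin, the kidney hormone that drives red cell production, did not pass the filter on low counts over the 12 kidneys. It stood at 3.14, 0, 54.6, 99.8 and 22.1 CPM in p150-negative animals 1, 3, 8, 9 and 16 and at 0 to 4.22 CPM in the p150-positive kidneys. The kidneys of animals 8, 9 and 16 were above all p150-positive kidneys, and those of animals 1 and 3 were within their range. Without animal 3 Epo was tested and called higher (4.82 ± 0.81, adjusted p = 0.00671). Of 13 tested hypoxia response genes edgeR called 0 with animal 3. At an unadjusted p under 0.05, 2 were higher and 1 lower (3.47% and 4.72% of all genes). Without animal 3 it called 3 of 14 higher (0.969% of all genes). The 3 were Epo, Adm, a vasodilator peptide gene (1.39 ± 0.26, adjusted p = 0.0118), and Ankrd37 (2.00 ± 0.45, adjusted p = 0.035). Epo passed the filter only without animal 3, and its high values are in p150-negative kidneys, so this count is a description.

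**Figure D4:**
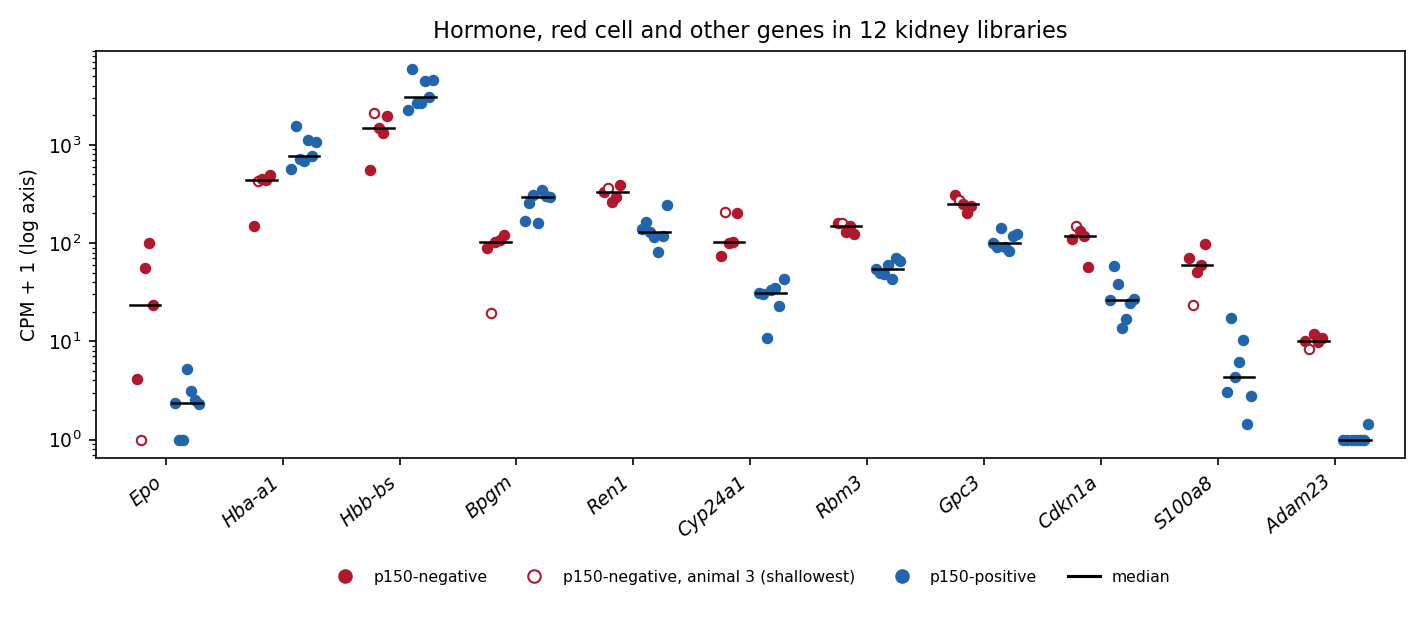
CPM + 1 on a log axis for 11 hormone, red cell and other genes, 1 point per kidney library, with group medians as black bars and animal 3 as an open point. Hba-a1 and Hbb-bs are lower in every p150-negative kidney, Epo spans 0 to 99.8 CPM among the p150-negative kidneys against 0 to 4.22 CPM, and Ren1, Cyp24a1, Rbm3 and Gpc3 are higher in every p150-negative kidney.

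Ren1, which encodes renin, the enzyme that starts angiotensin production, stood at 328, 364, 258, 295 and 384 CPM in animals 1, 3, 8, 9 and 16 against 79.1 to 242 CPM (median 128). The groups did not overlap, the p150-positive kidney of animal 15 came nearest, and the change was 1.12 ± 0.22 (adjusted p = 0.0276). With 1 kidney left out at a time, Ren1 lost its call in 9 of 12 fits. Ren1 was the 1 gene called higher among 8 tested of the renin-angiotensin list (0.385% of all genes). Cyp24a1, which inactivates vitamin D, stood at 72.6, 204, 99.4, 102 and 203 CPM against 9.84 to 41.7 CPM (2.11 ± 0.34, adjusted p = 0.00664), again without overlap. Kl, the klotho co-receptor of the phosphate hormone FGF23, was at 3.71 to 301.5 CPM against 277 to 532 CPM and missed the threshold (-0.91 ± 0.45, adjusted p = 0.641, and -0.63 ± 0.18, adjusted p = 0.103 without animal 3, which holds the value of 3.71).

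Rbm3, an RNA-binding protein induced by mild cold, stood at 158, 159.7, 129, 149 and 122.5 CPM in animals 1, 3, 8, 9 and 16 against 42.3 to 69.7 CPM (median 52.8). The groups did not overlap. The change was 1.28 ± 0.20 (adjusted p = 0.00537), and the call held over all 15 labelled kidneys too (1.46). Of the 15 tested cold and heat shock genes it was the 1 called (0.385% of all genes were called higher). Without animal 3 edgeR called 1 of the 15 higher and 2 lower (0.969% and 0.749% of all genes). The median was -0.66, with 7 lower at an unadjusted p under 0.05 (4.72% of all genes). Gpc3, a glypican that restrains growth, stood at 306, 275, 246.5, 200.04 and 236 CPM against 82.1 to 140.5 CPM (1.15 ± 0.18, adjusted p = 0.00537). Igfbp5, a binding protein of insulin-like growth factors, stood at 32.6, 66.9, 86.1, 94 and 76.2 CPM against 113 to 257 CPM (-1.28 ± 0.28, adjusted p = 0.0421). In both genes the groups did not overlap. The 32 tested nuclear subunits of oxidative phosphorylation all had a log2 fold change below 0 (median -0.37, lowest -0.70), as did 6736 of all 11957 genes. EdgeR called 0 of them (DESeq2 2 and limma voom 1, all lower), with 13 lower at an unadjusted p under 0.05 (4.72% of all genes). Uqcrfs1, the iron-sulfur subunit of complex III, stood at 661 to 948.5 CPM against 967 to 1230 CPM, without overlap, and missed the threshold (-0.62 ± 0.15, adjusted p = 0.0791).

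Adam23 (chromosome 1, 63445891 to 63596276, plus strand, GRCm38), a membrane protein without protease activity known from brain, gave the largest rise. It stood at 9.15, 7.43, 10.9, 8.91 and 9.84 CPM in animals 1, 3, 8, 9 and 16 and at 0 in 6 of 7 p150-positive kidneys, with 0.44 CPM in animal 15. Over each group that is 109 counts against 1, a ratio of rates of 198.2 (exact 95% interval 34.8 to 7898.7, counting error only). The fitted change was 6.54 ± 0.66 (adjusted p = 0.00028), and 6.65 ± 0.68 without animal 3. Pcdh9, a protocadherin, stood at 13.7, 70.6, 22.8, 10.3 and 19.3 CPM against 0 to 3.43 CPM (3.70 ± 0.69, adjusted p = 0.0157), with animal 3 well above the rest of its group. Without animal 3 the change was 3.19 ± 0.61 (adjusted p = 0.0159).

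Single libraries differed in how far they went. Over the 46 genes called higher, the kidney of animal 15 held the highest p150-positive value in 29, and animals 3 and 8 each held the highest p150-negative value in 17. The kidney of animal 9 was never the highest of its group, and the p150-positive kidney of animal 5 was at 0 in 8 of the 46. Over the 37 genes called lower, animal 3 was at 0 in 14, and animal 16 held the highest p150-negative value in 16. Within animals whose identifiers share the letters P or AC, all 46 and 37 genes had the direction of their call. Within AS, with 1 kidney per group, 46 and 36 did, and the letters AA hold 1 p150-positive kidney only. The labels do not say what these letters stand for. These kidneys also made the calls, so the counts are a description.

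Liver of the same cohort (7 p150-negative and 7 p150-positive kept libraries) shows which kidney differences were not alike in both organs. The library labelled liver of p150-negative animal 2 was left out. Its most abundant gene was Gpx3, as in every kept kidney library, where the kept livers had Alb or Hpx. The kept liver library of animal 16 was the shallowest of the kept livers, with 532311 counts. Of the 46 genes called higher in kidney 41 were tested in liver, and 40 of these had a log2 fold change above 0 there. In liver 30 of the 41 were also called higher and 0 lower. Of the 37 called lower 24 were tested, and 20 were below 0. In liver 13 of the 24 were also called lower and 2 were called higher. The shares of all genes above or below 0 in liver are not given here, so the counts by sign are a description. The interaction of genotype and tissue, over 12970 genes, called 85 genes with a genotype difference higher in kidney (0.655%) and 110 lower (0.848%), 1.5% in all. With the animal as a block, since both organs come from the same mice, it called 119, of which 101 were called without it too. Of the 46 and 37 kidney genes, 5 and 5 were called without the block.

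Adam23 differed by 5.85 ± 0.68 (log2, kidney change minus liver change, adjusted p = 4.24e-06), with a liver change of 0.49 ± 0.28. Slc10a1 differed by -4.72 ± 0.49 (adjusted p = 7.12e-07), with a liver change of -0.36 ± 0.21, and Aspg by -4.06 ± 0.56 (adjusted p = 4.44e-05), with 0.20 ± 0.22 in liver. In all 3, the liver change alone missed the threshold. Dnajc12, a co-chaperone of aromatic amino acid hydroxylases, was lower in kidney (-1.15 ± 0.23, adjusted p = 0.0258) and higher in liver (3.21 ± 0.24, adjusted p = 5.5e-08), and Cgref1, a secreted calcium-binding protein, likewise (-0.90 ± 0.19, adjusted p = 0.0384, and 2.65 ± 0.45, adjusted p = 0.000396). The difference between organs was -4.36 ± 0.35 for Dnajc12 (adjusted p = 2.19e-09) and -3.57 ± 0.49 for Cgref1 (adjusted p = 4.44e-05). Gpc3 rose in both, by 1.15 in kidney and 3.10 ± 0.35 in liver (difference -1.96 ± 0.42, adjusted p = 0.0086). Lgals3bp rose by 2.39 in kidney and 0.93 ± 0.22 in liver, and that difference of 1.46 ± 0.36 (adjusted p = 0.0263) lost its call with the animal as a block (adjusted p = 0.185). Dtx3l (2.21 ± 0.53, adjusted p = 0.0223) lost it too (1.84 ± 0.47, adjusted p = 0.0814). The cholesterol synthesis genes Nsdhl and Msmo1 were among the 5 genes with the smallest p for a difference higher in kidney. They fell in liver by 3.55 and 4.07 on the log2 scale and stood at 0.01 and -0.15 in kidney (adjusted p = 0.997 and 0.98).

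**Figure D5:**
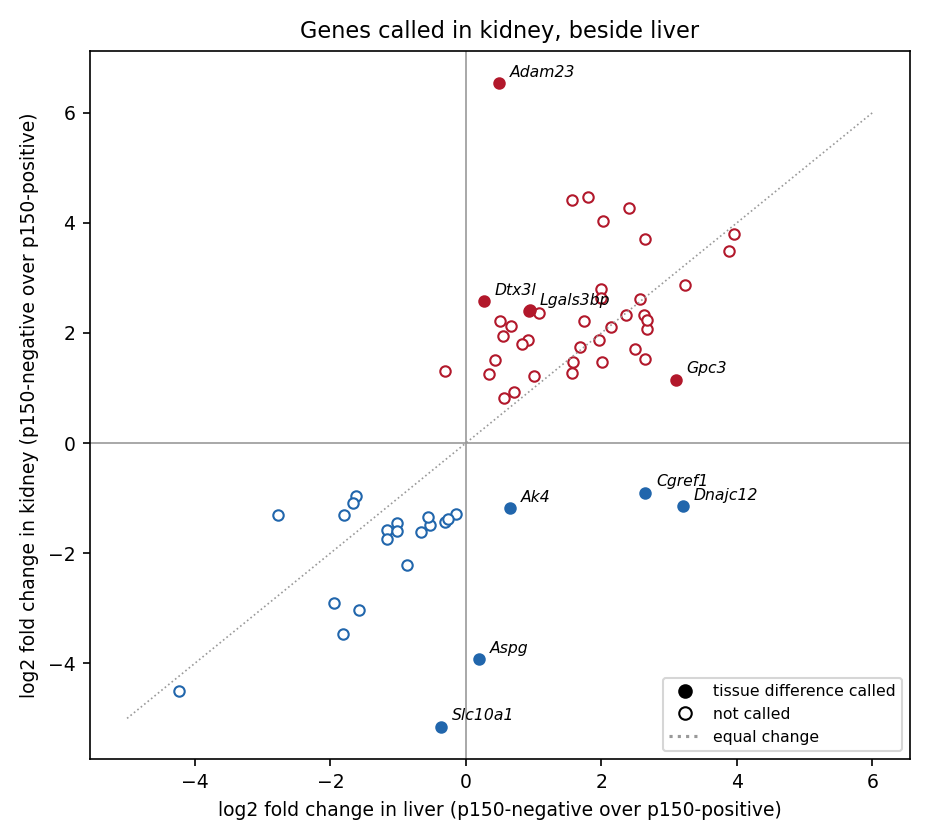
Log2 fold change in kidney (vertical) against liver (horizontal) for the genes called in kidney and tested in both, red for called higher and blue for called lower in kidney. Filled points are genes with a called difference between the organs, such as Dnajc12 at -1.15 in kidney and 3.21 in liver, and the dotted line marks equal change.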

How the data were processed

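The authors deposited a table of unnormalized read counts for each gene. Its 46 columns all matched a sample by the labels, with 0 left over. Per the labels' protocols, libraries were prepared with the Nextera XT kit from DNase-digested total RNA. Per the submitters' processing notes, STAR 2.4.2a, HTSeq 0.4.1, Picard 1.134, SAMtools 1.2, FastQC 0.11.3 and the build GRCm38 (mm10) were used. The annotation and strand setting are not given in the sources used here, so antisense, overlapping and near-identical genes are uncertain. Of 53471 rows, 6 repeated an identifier with identical counts, leaving 53465. Coordinates are from GENCODE M21 (99.6% of identifiers), and promoter sequences are from RefSeq (GRCm38.p6).

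Kidneys were compared with edgeR 4.0.16 (quasi-likelihood, TMM, low counts removed by filterByExpr on genotype at settings of 10 per library and 15 in all) in R 4.3.3, without a block, and a call needed a p under 0.05 after Benjamini-Hochberg adjustment. CPM use library totals of 269213 to 4875907 counts. The fit was also run on simulated counts with known changes, and the outcome is not reported here. The simulation gave all genes the same dispersion and did not copy the missing genes of animal 3. It is therefore no check of the calls in these data. No 2 kidneys agreed within counting noise (lowest chi-square per degree of freedom 5.59). The labels number the animals and give no litter, so p-values measure the spread between these animals. Liver and kidney libraries with the same number in the labels come from the same animal: their deviations from group means correlated from 0 to 0.19 over 11 animals.

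The members, the 58 gene lists and the rule for naming genes were chosen with earlier results of these data known. Named were the 14 largest rises and 12 largest falls among called genes (mean log2 CPM of at least 1, at least 4 p150-negative kidneys past the median p150-positive kidney in the direction called, without sex-linked, Gm, Rik and antigen receptor genes), up to 4 called or otherwise 3 members per list, 27 genes named whatever they showed, and 5 genes per direction of the organ difference. Ifit3, Hbb-bt, Hba-a2, Iigp1, S100a9, Slc22a6, Slc34a3 and Scnn1b were chosen after their values were seen, and not every gene meeting the rule is printed, some being not reported here. Alternatives were RLE factors, DESeq2 1.42.0, limma 3.58.1 voom, other filters, robust dispersion, identifier letters as a block, Xist as a covariate, all labelled kidneys, 1 fit with liver, and each library left out.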

Additional observations from a re-analysis of the deposited data

Results flagged for a closer look

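In 26 of 182 groups of 5 or 7 kidneys, 1 kidney stood apart from the rest of its group by Dixon's criterion. For normally distributed values chance alone meets it in about 1 group in 20. It was applied here to CPM without transformation, some of them at or near 0, so that share need not hold. The p150-positive kidney of animal 15 stood apart on the high side for Adam23 (0.44 CPM, 1 count), Serpina3g (14.93), Oas1g (4.39), Ddx60 (10.98), Isg15 (50.5) and H2-K1 (640.67), and on the low side for Dio1 (151.93). The shallow p150-negative kidney of animal 3 stood high for Ifi206 (92.86 CPM), Pcdh9 (70.58), Dtx3l (226.59), Dio1 (141.15), Ifih1 (219.16), Junb (156.01), Myc (100.29) and Slc34a3 (144.87). The p150-positive kidney of animal 5 stood high for Pvalb (157.82 CPM), Adar (43.88), Asns (43.11), Ddit3 (66.98) and S100a9 (44.65), and that of animal 10 for Havcr1 (4.7) and C3 (43.18). Single genes stood apart in animal 1 (Hba-a1 low, 146.89 CPM), animal 16 (Ucp1, 5.33), animal 6 (Ucp1, 147.87) and animal 8 (Iigp1, 506.65).

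The genotype difference itself differed between kidney and liver (edgeR, adjusted over 12970 genes) for 14 genes described for kidney. The log2 difference, kidney minus liver, was 5.85 for Adam23, 2.21 for Dtx3l, 1.46 for Lgals3bp and 3.64 for Iigp1. It was -4.72 for Slc10a1, -4.06 for Aspg, -4.36 for Dnajc12, -3.57 for Cgref1, -1.96 for Gpc3, -2.68 for Miox and -3.0 for Acsm3. It was -5.61 for Aqp3, -3.67 for Slc4a9 and -2.94 for the monocyte gene Cd14. Aqp3 did not pass the filter on low counts in liver alone. It has no liver change to set beside its kidney change, and its difference is uncertain (SE 1.27). With the animal as a block, Dtx3l, Lgals3bp, Iigp1, Acsm3 and Aqp3 lost the call (adjusted p of 0.0814, 0.185, 0.393, 0.288 and 0.144).

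The 3 libraries labelled kidney that were left out held RNA of other organs. Stomach genes summed to 64970 CPM and intestine genes to 518 CPM in that of animal 2. Intestine genes summed to 19208 CPM in that of animal 11 and 21389 CPM in that of animal 12, where pancreas genes reached 21599 CPM. In the kept kidneys these sums were at most 43.7 CPM for stomach, 43.9 for intestine and 504 for pancreas.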

How the results depend on the processing

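Counts of genes called higher and lower (46 and 37) stayed within 1.5 times with RLE factors, voom, a stricter filter, robust dispersion and Xist as a covariate. They were 147 and 160 with DESeq2, 91 and 50 without a filter, 15 and 17 with the identifier letters as a block, and 141 and 85 in 1 fit with liver. Over all 15 labelled kidneys edgeR called 1 and 0, with 706 at an unadjusted p under 0.05. Other tools were not run on those 15. Leaving out 1 kidney at a time gave 21 to 119 higher and 13 to 92 lower, the lowest without animal 8 and the highest without animal 3. The higher count also moved by over 1.5 times without animals 4 (28), 10 (29) and 16 (30), and the lower count without animals 1 (14), 4 (18), 6 (22), 7 (17), 9 (19), 10 (14), 13 (17) and 16 (21). Of 91 genes followed over 22 settings, 4 changed sign, none of them called: Adar, Ddit3, Atf4 and Slc12a3. With 1 kidney left out at a time Adar ran from -0.5 to 0.05 and Ddit3 from -0.65 to 0.08, both above 0 only without animal 5, Atf4 from -0.13 to 0.29 and Slc12a3 from -0.14 to 0.17. Atf4 was at -0.12 with the letters as a block, and Slc12a3 at -0.04 with Xist, -0.28 over all 15 and 0 in the fit with liver. Of the 53 called, 22 kept their call whichever kidney was left out, and 18 lost it in at least 8 of 12 such fits: Apol9a, Bpgm, Car3, Cgref1, Ddx60, Dnajc12, Hba-a1, Hbb-bs, Igfbp5, Oas1g, Pvalb, Rdh16f2, Ren1, Serpina3g, Slc22a12, Slc22a2, Slc22a7 and Stat3. Of the 53, 14 kept their call in every setting but all 15 kidneys, and Adam23 and Rbm3 kept it in every setting that tested them. With Xist as a covariate Bpgm, Car3, Cgref1, Dtx3l, Hba-a1, Hbb-bs, Igfbp5, Oas2, Pvalb and Stat3 lost their calls. The cause was not tested. The library of animal 3 was shallow and also held fewer genes than the others would at its depth. In it, 14 of the 37 genes called lower had 0 counts. List counts under other settings were added after seeing the data.

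Between kidney and liver, 85 and 110 genes were called without a block, and in both directions 119 with the animal as a replicate block (the pairing of organs) and 71 over all labelled libraries, and the cause was not tested. Within kidney alone no paired analysis was possible because no animal is in both groups.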
